A study of Mus musculus with 8 samples.

Results

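The baseline transcriptome of untreated 3T3-L1 adipocytes was described from 2 libraries, the untreated replicates 1 and 2, of the 8 libraries of the series. A gene entered the description when it had at least 10 counts in both libraries, and 13625 of the 43629 genes in the count table did, of which 11998 are protein-coding. 3T3-L1 is an established mouse preadipocyte line. All cultures of the series, the untreated ones included, were grown in 6-well plates and induced with insulin, dexamethasone (1 μM), isobutylmethylxanthine (0.5 mM) and rosiglitazone (1 μM), an agonist of PPARγ. Treatment began on day 8 and lasted 24 h, in 4 groups of 2 libraries (untreated, the p110α inhibitor A66, palmitate, and palmitate with A66). The labels call the control cells untreated, whereas the methods of the study describe DMSO vehicle as the control for A66, so it is not settled whether these cells received vehicle. Which libraries are the untreated ones rests on the labels alone. The study's methods speak of 2 biological repeats of 1 cell line, so each ± below is an SD over 2 libraries (n = 2) and covers only the spread between them, which may be technical. With 2 libraries of 1 group no test was run, since an exact sign-flip test could not fall below p = 0.5. Levels and ratios are read against that spread.

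Fat cells store fatty acids as triglyceride in a large lipid droplet and release them again when hormones call for it. The nuclear receptor PPARγ and the factor C/EBPα drive the genes of this programme, which cover fatty acid uptake, fatty acid and glycerol synthesis, the coat of the droplet, lipolysis, glucose uptake under insulin and the secreted adipokines. White fat cells store lipid, while brown and beige fat cells burn it through the uncoupling protein UCP1. Fibroblast-like preadipocytes produce collagens and other matrix proteins before they differentiate.

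CPM, the counts scaled to a common library total, compare a gene between libraries. TPM, in which counts are first divided by the length of the gene's merged exons and then scaled in the same way, compare genes with each other. The libraries held 42247091 counts in replicate 1 and 53401796 in replicate 2. A count of 10 corresponded to 0.237 CPM in replicate 1 and 0.187 CPM in replicate 2. Just inside the threshold, 335 genes had a lower count of 10 to 12, with mean levels of 0.212 to 0.535 CPM. Just outside it, 278 genes had a lower count of 8 or 9, with mean levels of 0.170 to 0.425 CPM. A length was available for 13527 detected genes, whose median level was 17.6 TPM. The top decile of them began at 101 TPM and holds, by construction, 10.0% of the detected genes. Membership of that decile is used below as a mark of a highly abundant transcript. Of the 43629 genes, 23742 were listed at 0 in both libraries. A listed 0 allows up to 3 counts, which is 0.0710 CPM in replicate 1 and 0.0562 CPM in replicate 2. Mrps23 and Mrpl53, which encode proteins of the mitochondrial ribosome that every cell uses, were also listed at 0, so a 0 is given below only as listed.

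A small number of transcripts took a large part of the reads. The single most abundant gene held 5.54% of counts in replicate 1 and 5.27% in replicate 2. The 20 most abundant genes held 17.0 and 16.6%, the 100 most abundant 27.2 and 26.7%, and the 1000 most abundant 54.9 and 54.6%. The 761 most abundant genes together reached 50% of the mean CPM. Of the 20 genes with the most counts, 9 are encoded by the mitochondrial genome, and the other 11 are Malat1, Lpl, Scd1, Gm42418, Eef1a1, Mdm2, Col3a1, Fth1, Col1a2, Fn1 and Fabp4.

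**Figure D1:**
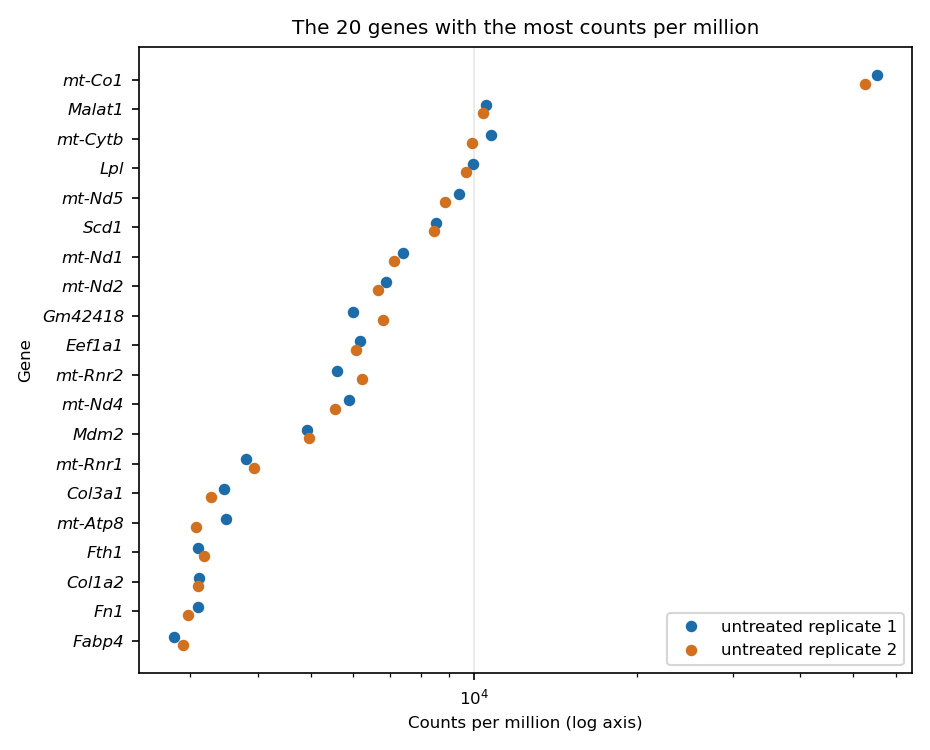
The 20 genes with the highest mean CPM (x axis, log scale), with 1 point for each untreated library. mt-Co1 lies at 55362 and 52702 CPM, and the 2 libraries of each gene lie close together.

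The nuclear genes in this group were led by the long noncoding RNA Malat1, which is retained in the nucleus, at 10537 and 10421 CPM in replicates 1 and 2. Lpl, the lipoprotein lipase that frees fatty acids from circulating triglyceride, reached 9975 and 9693 CPM. Scd1, the desaturase that makes oleate and palmitoleate, reached 8503 and 8460.4 CPM. The translation factor Eef1a1 had 6173 and 6077 CPM, and the ubiquitin ligase Mdm2 had 4921 and 4967 CPM. In each of these 5 genes the libraries lay within 1.2-fold of each other. Gm42418, annotated as a long noncoding RNA on chromosome 17, had 5993 and 6790.3 CPM, and 67.9% of its length matched transcripts of other genes.

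By merged exon length, which sets the TPM and every order between genes given here unless another is named, the order among nuclear protein-coding genes was Eef1a1, Scd1, Adipoq, Ftl1, Cfd, Mdm2, Lpl, B2m, Fth1 and Rplp1. Eef1a1 stood at 7853 and 7736 TPM and Scd1 at 5513 and 5488 TPM. Adipoq, the adipokine adiponectin, stood at 5215 and 5461 TPM, beside Ftl1, the ferritin light chain, at 5207 and 5450.2 TPM. Scd1, Adipoq and Ftl1 lay close to each other, with means of 5500.4 ± 17.7, 5338 ± 174 and 5329 ± 172 TPM. By the median transcript length their means were 12725, 2856 and 3300 TPM. Of these 10 genes Eef1a1 was also the first by the longest transcript, but Scd1 was the first by the median transcript length and Lpl the first without length. Cfd, the protease adipsin of the complement pathway, followed at 3624 and 3939 TPM. Mdm2 (3086 ± 21.5 TPM), Lpl (2977 ± 59.2 TPM), B2m (2951 ± 179 TPM), Fth1, the ferritin heavy chain (2869.9 ± 50.8 TPM), and Rplp1 (2858 ± 269 TPM) lay close to each other. By the longest transcript the same genes ran from a mean of 2300 TPM for Rplp1 to 6104 TPM for Lpl. Further down the first 20 nuclear protein-coding genes were Lgals1 (2561 TPM), the ribosomal proteins Rplp0, Rpl23a and Rps3a1, the elongation factor Eef2, the lysosomal protein Psap, Gpd1 (2107 TPM), Slc35e3 (2042 TPM), Fabp4 (2017 TPM) and the chaperone Hsp90ab1. Cd36, the fatty acid translocase, came next at 1809 and 1916 TPM. The 78 cytosolic ribosomal protein genes, all detected, held 2.72 and 2.86% of counts.

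Proximal promoters, from 250 bases before to 50 bases after the start, were read from RefSeq for genes of both ends of the scale. Adipoq, Cd36, Mdm2 and Slc35e3 are shown as abundant transcripts and Ucp1 as a gene listed at 0. Capitals mark every match, on either strand, to the TATA box (searched as TATAAA), the CCAAT box (as CCAAT), the GC box (as GGGCGG), the half-site of nuclear receptors (as AGGTCA) or the E-box (as CACGTG), and no matches overlapped in these 5 sequences. The build is GRCm38.p6, and each sequence is written 5′ to 3′ on the strand of its gene. Their positions are chr16:23146286-23146585, plus strand for Adipoq, chr5:17835847-17836146, minus strand for Cd36, chr10:117710709-117711008, minus strand for Mdm2, chr10:117746309-117746608, minus strand for Slc35e3, and chr8:83290098-83290397, plus strand for Ucp1.
Adipoq: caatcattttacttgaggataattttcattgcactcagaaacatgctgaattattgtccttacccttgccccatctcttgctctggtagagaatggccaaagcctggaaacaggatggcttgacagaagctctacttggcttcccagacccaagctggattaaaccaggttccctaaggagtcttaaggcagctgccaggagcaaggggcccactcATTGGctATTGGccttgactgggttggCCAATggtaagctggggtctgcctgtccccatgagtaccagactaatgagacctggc
Cd36: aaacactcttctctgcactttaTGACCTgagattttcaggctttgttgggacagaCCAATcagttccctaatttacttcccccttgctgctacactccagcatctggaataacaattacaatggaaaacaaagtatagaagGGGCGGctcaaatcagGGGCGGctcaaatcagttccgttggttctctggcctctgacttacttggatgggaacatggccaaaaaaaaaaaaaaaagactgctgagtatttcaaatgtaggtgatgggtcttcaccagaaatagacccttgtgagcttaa
Mdm2: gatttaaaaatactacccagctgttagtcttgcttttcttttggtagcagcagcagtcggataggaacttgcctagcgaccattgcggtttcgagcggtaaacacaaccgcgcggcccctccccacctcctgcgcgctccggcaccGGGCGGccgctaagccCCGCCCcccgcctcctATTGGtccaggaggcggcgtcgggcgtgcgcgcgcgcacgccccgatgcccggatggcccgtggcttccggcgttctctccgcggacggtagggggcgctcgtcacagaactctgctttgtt
Slc35e3: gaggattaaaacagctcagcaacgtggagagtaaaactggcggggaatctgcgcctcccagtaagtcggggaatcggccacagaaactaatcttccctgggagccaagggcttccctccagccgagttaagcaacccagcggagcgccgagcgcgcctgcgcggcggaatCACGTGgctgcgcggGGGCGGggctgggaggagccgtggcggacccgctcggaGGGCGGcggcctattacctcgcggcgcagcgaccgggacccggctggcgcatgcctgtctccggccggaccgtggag
Ucp1: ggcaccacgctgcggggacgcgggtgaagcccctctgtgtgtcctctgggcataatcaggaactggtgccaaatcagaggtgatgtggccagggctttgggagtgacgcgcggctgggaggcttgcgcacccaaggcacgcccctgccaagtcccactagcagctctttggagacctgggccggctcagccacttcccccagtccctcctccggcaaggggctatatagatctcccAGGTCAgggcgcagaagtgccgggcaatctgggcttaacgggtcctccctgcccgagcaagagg

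The Adipoq window held 3 matches to the CCAAT box, at 34, 27 and 7 bases before the start (distances are to the first base of the match), and none to the GC box. Cd36, Mdm2 and Slc35e3 each held 2 matches to the GC box, and Cd36 also held 1 to the half-site. The Ucp1 window held 1 match to the half-site, 14 bases before the start. None of the 5 windows held the TATA box. The windows of Cfd and Plin1, also abundant, were searched too and held no match to any of the motifs, and they are not printed. Over the promoters of the whole table, the GC box was present in 35.7% of 32851, in 61.7% of the 12709 of detected genes and in 65.6% of the 1310 of the top decile. The TATA box was present in 13.6, 7.14 and 8.24% of the same sets, the CCAAT box in 37.4, 38.3 and 39.8%, the half-site in 16.3, 12.5 and 13.6%, and the E-box in 7.15, 9.83 and 11.7%. Of these 5 motifs the GC box had the widest gap between all promoters and those of detected genes. Such matches describe letters in a window and nothing more.

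The mitochondrial genome supplied 10.9 and 10.5% of all counts from 37 genes, and 30.3 and 28.7% of the summed TPM, since its transcripts are short. These figures come from a library selected with oligo dT. Among its 13 protein genes, which encode subunits of the respiratory chain and the ATP synthase, counts ran from 76 to 2814387, and over the 6 without a close copy in other gene models from 15562 for mt-Nd6 to 529797 for mt-Cytb. mt-Co1, subunit 1 of cytochrome c oxidase, had 2338904 and 2814387 counts. mt-Cytb had 454877 and 529797 counts, mt-Nd5 396203 and 471919, mt-Nd1 312706 and 380922, mt-Nd2 291141 and 355772 and mt-Nd4 248332 and 295888. mt-Co2 and mt-Co3, the other mitochondrially encoded subunits of the same enzyme, had only 80 and 76 and 87 and 96 counts. mt-Nd3 had 87 and 81 counts and mt-Nd4l 256 and 396.

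The low genes shared a sequence property. At 99% identity or more over at least 100 bases, 99.6% of mt-Co2, 99.9% of mt-Co3, 99.1% of mt-Nd3, 98.99% of mt-Nd4l and 99.6% of mt-Atp6 matched transcripts of other genes. Their longest matches were, in the same order, the nuclear pseudogenes Gm28661, Gm28437, Gm28438, Gm10222 and Gm10925. mt-Cytb, mt-Nd1, mt-Nd2, mt-Nd5, mt-Nd6 and mt-Atp8 had no such match. mt-Co1 was matched over 31.3% of its length and mt-Nd4 over 63.6%. mt-Atp6 was thus matched almost whole but had 20209 and 22551 counts, above mt-Nd6, the lowest of the genes without a match, at 15562 and 18933. mt-Atp8, which overlaps the start of mt-Atp6 on the same strand, stood at 54235 and 47909.6 TPM against 2228 and 1968 TPM for mt-Atp6. How reads with several matching places were treated was not tested. The levels of the matched genes are therefore not read as levels of their transcripts. The ribosomal RNAs mt-Rnr1 and mt-Rnr2 had 160355 and 209868 counts and 236212 and 332587 counts.

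**Figure D2:**
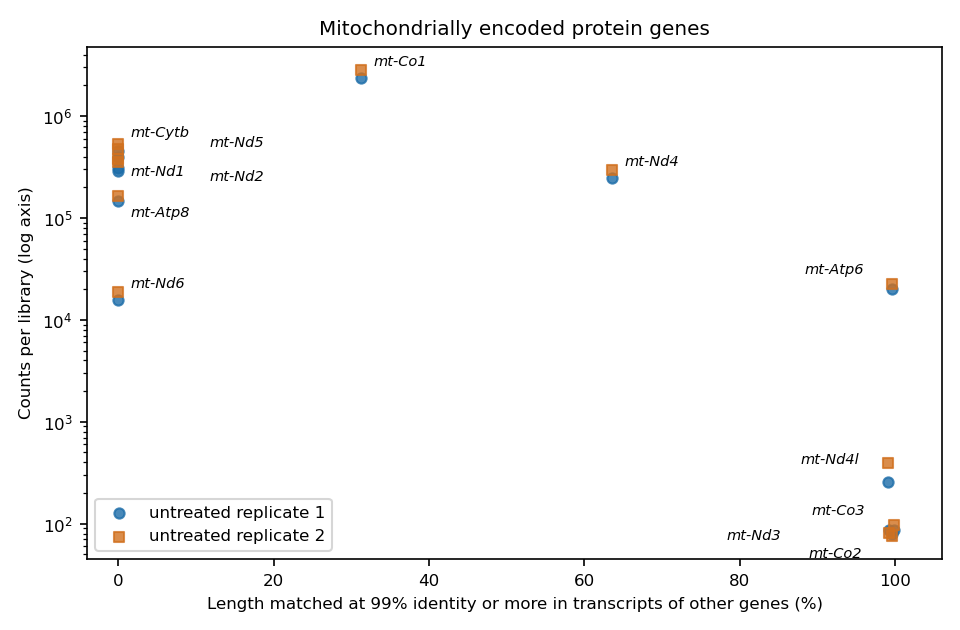
Counts of the 13 mitochondrially encoded protein genes in each untreated library (y axis, log scale) against the percentage of the gene's length that matched transcripts of other genes (x axis). mt-Co2, mt-Co3, mt-Nd3 and mt-Nd4l lie at 98.99% or more matched and at 76 to 396 counts, and mt-Atp6 is matched as fully but lies at 20209 and 22551 counts.

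The adipocyte label was checked on 4 markers, and all 4 were in the top decile. Adipoq stood at 5215 and 5461 TPM. Fabp4, the fatty acid binding protein aP2, stood at 1976 and 2058 TPM. Plin1, the perilipin that coats the droplet of mature adipocytes, stood at 321 and 328 TPM. Pparg, the nuclear receptor, stood at 339 and 337 TPM. Their ranks by mean TPM over all genes were 13, 32, 325 and 305. By CPM, without length, the ranks were 24, 20, 204 and 415.

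The 19 transcription factors of adipogenesis were all detected, beside 55.7% of the 21551 protein-coding genes in the table, and 2 of them, Pparg and its partner Rxra (148 and 139 TPM), lay in the top decile, against 10.0% of detected genes. These 2 shares are the background for each list that follows. Srebf1, which drives lipogenic genes, stood at 93.5 ± 7.68 TPM. Cebpa stood at 83.1 ± 7.92 TPM, Nr1h3, the oxysterol receptor LXRα, at 72.7 ± 6.91 TPM, and the glucocorticoid receptor Nr3c1 at 70.8 ± 0.281 TPM. Cebpb was lower at 10.2 ± 0.969 TPM, as was Cebpd at 2.70 ± 1.21 TPM. Cebpd had 92 and 224 counts, a wide gap for its level. Klf5 was the lowest at 0.164 ± 0.0540 TPM, from 14 and 11 counts. The median over the 19 genes was 29.5 TPM, beside 17.6 TPM over all detected genes.

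Droplet and lipolysis genes were more abundant, with 8 of 15 in the top decile and 13 detected. Cidec, which enlarges droplets by fusion, stood at 1250.0 and 1272 TPM and Pnpla2, the first lipase of the cascade (ATGL), at 1220.0 and 1222 TPM. Cidec was the higher in both libraries by merged exons, and Pnpla2 under the 3 alternatives (the longest transcript, the median transcript length and no length). Plin4 stood at 906 ± 18.6 TPM. G0s2, the inhibitor of ATGL, stood at 573 ± 6.17 TPM, and Abhd5, its activator (CGI-58), at 98.6 ± 0.680 TPM. By the median transcript length G0s2 and Abhd5 lay close, at means of 203 and 199 TPM. Without length the activator was the higher, at 186 and 184 against 159 and 156 CPM. Lipe, the hormone-sensitive lipase that acts second, stood at 449.9 ± 3.21 TPM. Mgll, the monoglyceride lipase that acts last, stood at 2.21 ± 0.225 TPM, from 160 and 175 counts. The 3 lipases thus lay in the order Pnpla2, Lipe and Mgll, far beyond their spread and under all 4 length settings. Aqp7, the channel for the glycerol that is released, had 50.2 ± 2.66 TPM. Cidea had 5 and 24 counts and Plin5 0 and 1, both of which are known from brown fat and other oxidative tissues.

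Of the 10 genes of fatty acid uptake and binding, 8 lay in the top decile and 9 were detected. Lpl (3019 and 2936 TPM), Fabp4, Cd36 and Cav1 (1016 and 1017 TPM), the main protein of caveolae, led the list. Acsl1, which activates fatty acids with coenzyme A, stood at 521 ± 14.7 TPM, and Angptl4, an inhibitor of lipoprotein lipase, at 105 ± 4.37 TPM. Gpihbp1, which carries lipoprotein lipase on capillary endothelium, was listed at 0. All 12 lipogenic genes were detected, 7 of them in the top decile. After Scd1 and Scd2 came Slc25a1, the mitochondrial citrate carrier, at 300.0 ± 13.2 TPM and Fasn, the fatty acid synthase, at 299 ± 0.602 TPM. Acly, which cleaves citrate to acetyl-CoA, stood at 266 ± 1.53 TPM, and Me1, which supplies NADPH, at 224 ± 11.6 TPM. Acaca, the acetyl-CoA carboxylase that commits acetyl-CoA to the pathway, was lower at 73.2 ± 0.251 TPM, and 64.3% of its longest transcript matched another gene model. Without length Acaca stood at 394 CPM, above Me1 (272 CPM) and Slc25a1 (205 CPM) but below Acly (442 CPM) and Fasn (1032 CPM). The lowest members were Elovl6 (21.3 ± 0.124 TPM) and Acss2 (18.5 ± 1.21 TPM).

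The 9 genes of triglyceride synthesis and glyceroneogenesis were all detected, 5 in the top decile. Gpd1, which makes glycerol-3-phosphate from a product of glycolysis, was first at 2141 and 2074 TPM. Pcx, the pyruvate carboxylase that refills the citrate cycle, was second at 936 and 934 TPM. Dgat1 (232 ± 14.01 TPM), Agpat2 (205 ± 9.24 TPM) and Dgat2 (197 ± 0.513 TPM) were close to each other. Pck1, the carboxykinase of glyceroneogenesis, stood at 89.4 ± 9.10 TPM. Gk, the glycerol kinase that would reuse released glycerol, was last at 8.16 ± 0.911 TPM. Gpd1 exceeded Gk in TPM in both libraries, at 2141 and 2074 against 7.51 and 8.80.

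Adipokines ranged from very abundant genes to genes listed at 0. Of 17, 6 were in the top decile (10.0% of all detected genes), 12 were detected (55.7% of all protein-coding genes) and 5 were listed at 0. Adipoq and Cfd were followed by Retn, the mouse adipokine resistin, at 654 and 718 TPM. Rarres2, chemerin, stood at 291 ± 7.79 TPM, and Nampt at 274 ± 4.10 TPM. Lep, leptin, the signal of fat stores, stood at 14.3 and 11.1 TPM, from 638 and 627 counts, and thus lay below the median of detected genes. The genes listed at 0 were Rbp4, Serpina12, Itln1, Sfrp5 and C1qtnf2. All 11 genes of insulin action were detected, and Akt1, Akt2 and Slc2a4 lay in the top decile. Slc2a4, the glucose transporter GLUT4 that moves to the cell surface under insulin, stood at 144 and 143 TPM. Insr, the insulin receptor, stood at 90.6 ± 2.16 TPM and Irs1 at 91.02 ± 4.62 TPM. Pik3ca, which encodes p110α, the target of A66, stood at 33.1 and 32.5 TPM.

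Genes of brown and beige fat were mostly at or near 0. Of 29, 10 were detected, against 55.7% of protein-coding genes, 13 had 3 counts or fewer in both libraries and 6 were listed at 0. Those 6 were Ucp1, Elovl3, Zic1, Tmem26, Lhx8 and Ckb. Prdm16, a regulator of the brown programme, had 1 and 0 counts, Dio2 1 and 1 and Cidea 5 and 24. Only 2 members lay in the top decile. Cox8b, the muscle and brown fat form of a cytochrome c oxidase subunit, stood at 133 and 166 TPM, with 636 and 1007 counts. Without length Cox8b had 15.1 and 18.9 CPM, below the median of 23.9 CPM over detected genes. Adrb3, the beta-3 adrenergic receptor that white and brown fat share in the mouse, stood at 118 and 116 TPM. Ppargc1a, the coactivator PGC-1α, stood at 30.2 ± 1.01 TPM, and Kcnk3, a potassium channel, at 51.7 ± 0.505 TPM. The median over the 29 genes was 0.0602 TPM.

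Matrix and fibroblast genes were abundant beside the adipocyte genes. Of 32 genes of preadipocytes and fibroblasts, 29 were detected, against 55.7% of protein-coding genes, and 13 lay in the top decile. Sparc, a matrix glycoprotein, stood at 1267 and 1179 TPM, Col3a1 at 1118 and 1058 TPM, Fn1, fibronectin, at 842 and 807 TPM and Col1a2 at 795 and 793 TPM. Vim, vimentin, stood at 614 ± 32.4 TPM and Postn, periostin, at 108 ± 8.91 TPM. Of the surface markers of progenitors, Pdgfrb stood at 121 ± 5.55 TPM, Ly6a (Sca-1) at 43.8 ± 4.04 TPM, Thy1 at 34.8 ± 0.968 TPM and Pdgfra at 29.5 ± 1.88 TPM. Cd34 (12 and 19 counts) and Pi16 (21 and 19 counts) were near the threshold. Dlk1, which encodes the preadipocyte factor Pref-1, and Dpp4 were listed at 0. In these bulk samples a change in the number of cells of a type cannot be told from a change in RNA per cell. How far the matrix transcripts came from cells that had not differentiated was not tested.

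Collagen genes as a whole held 1.80 and 1.77% of counts, from 25 detected genes of 44, near the 55.7% of all protein-coding genes. By merged exons Col6a1 stood at 1204 ± 14.9 TPM, Col3a1 at 1088 ± 42.4 TPM and Col4a1 at 991 ± 18.4 TPM, whereas under the 3 alternatives Col3a1 was above Col6a1, Col4a1 and Col1a2. The basement membrane partners Col4a1 and Col4a2 stood at 991 and 697 TPM, and the type I partners Col1a1 and Col1a2 at 306 and 794 TPM. Type I collagen contains 2 chains of Col1a1 for each chain of Col1a2, and here Col1a1 was the lower transcript in both libraries, at 306 and 306 against 795 and 793 TPM.

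Other cell types were checked with their own lists. Of 10 macrophage and leukocyte genes 3 were detected, of 6 endothelial genes 2, of 8 skeletal muscle genes 2, of 6 osteoblast and chondrocyte genes 1, and of 9 epithelial, liver and neural genes 3, against 55.7% of protein-coding genes. None of these 39 genes lay in the top decile. The defining leukocyte genes Ptprc, Adgre1, Tyrobp and Cd3e were listed at 0, while Cd14 stood at 13.8 ± 0.109 TPM, Cd68 at 7.63 ± 1.58 TPM and Lyz2 at 7.23 ± 0.0144 TPM. Cdh5 and Kdr of endothelium, and Myod1, Myog, Myf5, Myh1, Myh4 and Ckm of muscle, were listed at 0. Des, desmin, was the highest gene of these lists at 35.4 ± 0.697 TPM. The summed levels of the leukocyte list were 13.4 CPM in replicate 1 and 14.3 CPM in replicate 2.

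**Figure D3:**
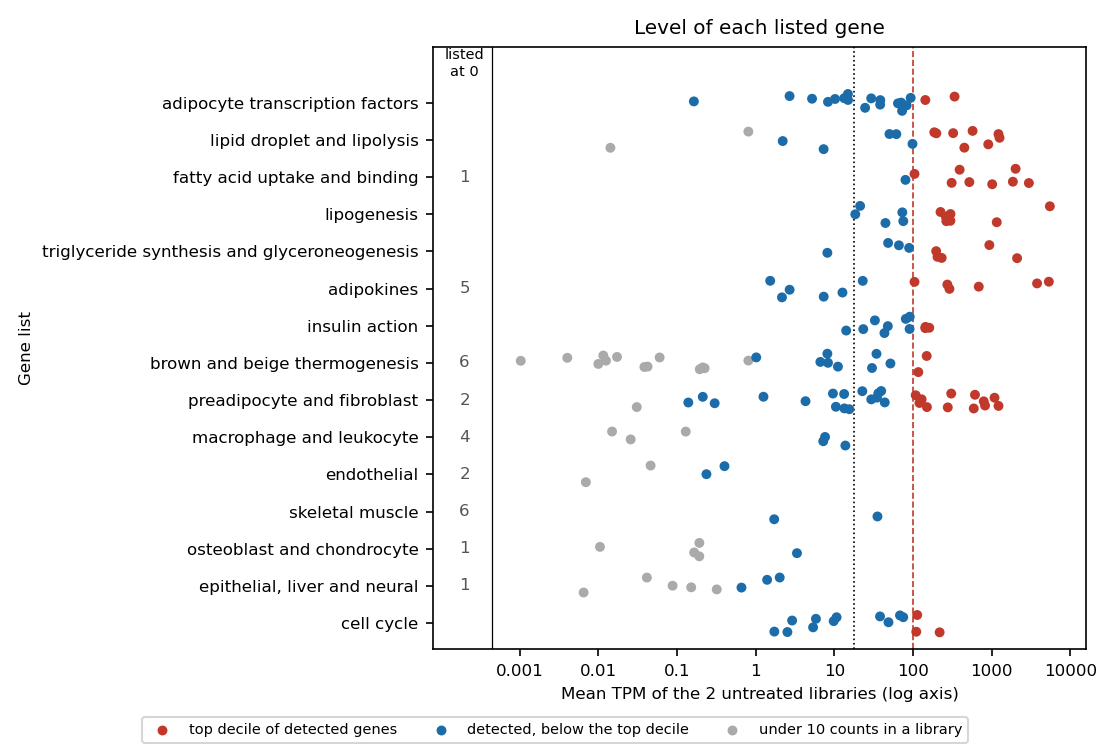
Mean TPM (x axis, log scale) of every listed gene, with 1 row of points for each list and the number of genes listed at 0 at the left. The dotted line is the median of detected genes (17.6 TPM) and the dashed line the start of the top decile (101 TPM); lipid genes lie mostly right of it and the lists of other cell types left of it.

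Cell cycle genes were all detected, against 55.7% of protein-coding genes. Of the 14 genes 3 lay in the top decile, against 10.0% of detected genes, all of them inhibitors of cyclin-dependent kinases. Cdkn2a stood at 196 and 240.2 TPM, Cdkn1a (p21) at 113 and 114 TPM and Cdkn2c (p18) at 110.1 and 110.2 TPM. Cdkn1b (p27) stood at 75.2 ± 0.542 TPM and Cdkn2b at 38.1 ± 1.69 TPM. Of the genes of S phase and mitosis, Pcna stood at 68.4 ± 1.51 TPM, Cdk1 at 10.7 ± 0.371 TPM, Mcm2 at 9.82 ± 0.932 TPM, Top2a at 5.37 ± 0.791 TPM, Mki67 at 2.91 ± 0.00303 TPM and Ccnb1 at 1.73 ± 0.405 TPM. Of Pcna 51.4% and of Ccnb1 51.7% matched other gene models. Ccnd1, cyclin D1, stood at 48.8 ± 1.52 TPM, and it and Pcna lay above Cdkn2b in both libraries. By the median transcript length Cdkn2b also lay below Cdk1, Mcm2 and Top2a.

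Mdm2, the ubiquitin ligase that marks p53 for degradation, was the sixth nuclear protein-coding gene by TPM and the fourth by CPM. It lies at chr10:117688875-117710758 (GRCm38, minus strand) and had 207893 and 265254 counts, or 3070.5 and 3101 TPM. A list of 21 genes of the p53 pathway was written after this level had been seen, and is given as a description only. Of these, 19 were detected, 6 lay in the top decile, and Pmaip1 and Perp were listed at 0. Trp53 itself stood at 38.7 ± 2.84 TPM, and Mdm4, the related inhibitor of p53, at 43.1 ± 0.443 TPM. The targets of p53 Ccng1 (325 ± 6.57 TPM), Gadd45a (114 ± 8.62 TPM) and Cdkn1a (113 ± 0.519 TPM) lay in the top decile, against 3086 TPM for Mdm2.

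The next protein-coding gene along chromosome 10, Slc35e3, which encodes a member of a family of nucleotide sugar transporters, was also abundant. It lies at chr10:117733679-117746365, 44.8 kb from Mdm2 by their lower coordinates, and had 97718 and 118940 counts, or 2081 and 2004 TPM. Within 500 kb the other protein-coding genes were far lower. Rap1b stood at 362 ± 5.63 TPM, Yeats4 at 152 ± 1.38 TPM, Nup107 at 84.4 ± 1.34 TPM and Cpsf6 at 80.7 ± 3.20 TPM. Mdm1 stood at 19.9 ± 0.0167 TPM and Cpm at 8.35 ± 0.489 TPM, although Cpm ends next to Mdm2. No match of 100 bases or more was found between Mdm2 and transcripts of other genes, whereas 23.7% of Slc35e3 was matched. The number of copies of this region in these cells was not measured.

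**Figure D4:**
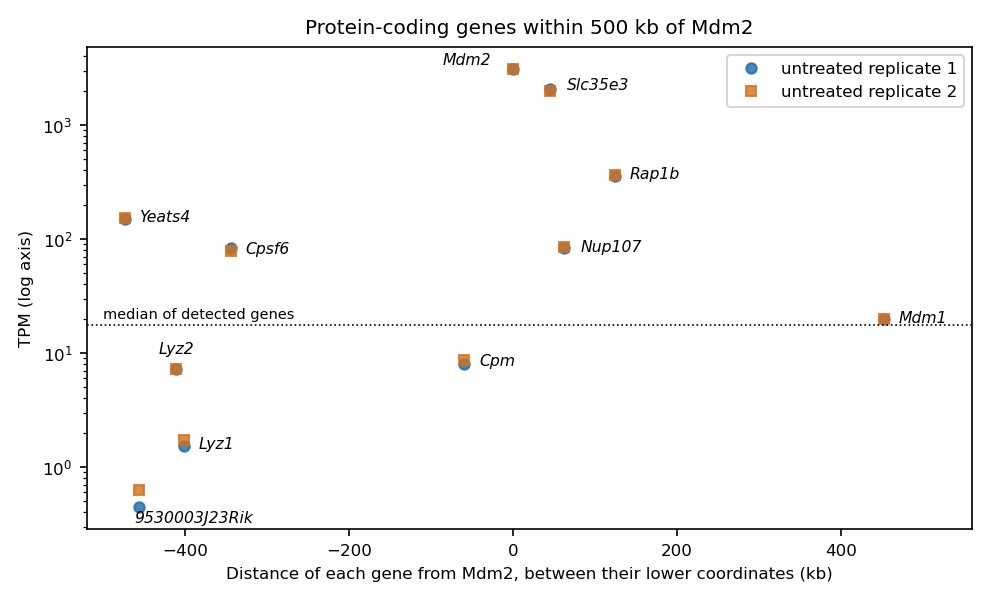
TPM (y axis, log scale) of the protein-coding genes within 500 kb of Mdm2, by distance between the lower coordinates of the genes (x axis, kb), with 1 point for each untreated library. Mdm2 and Slc35e3 lie at 2004 to 3101 TPM and the next highest gene, Rap1b, at 358 and 366 TPM.

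The choice among paralogs was described for 71 families of 268 genes, of which 70 had a detected member. The families are groups of named genes, and whether all members of each are related in sequence was not tested. The first member is the one with the highest mean TPM. It held at least 90% of the summed TPM in 17 families, 50 to 90% in 44 and less than 50% in 9. A ratio of first to second member could be formed in 63 families, in which the second had over 3 counts in both libraries. All 63 had the same first member in both libraries, and in 59 (93.7%) the mean log2 ratio exceeded 2 times its SD. The members were ordered on these same 2 libraries, and no share was computed for other pairs of genes. That share is therefore a description and not a result about paralogs. In 20 of those 59 the ratio was under 2-fold. The order depended more on length than on the library. With the longest transcript in place of merged exons another gene came first in 3 families, with the median transcript length in 17 and without length in 10. The first member was the same under all 3 alternatives in 53 families. The size of a ratio depended on length as well, and in 47 of 63 families another length moved it by over 1.5 times. Where a fold printed here is among them, its lowest and highest value under the 3 alternatives follow in parentheses. Shares are by merged exons. The values that follow are for those 53 unless the text says otherwise.

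**Figure D5:**
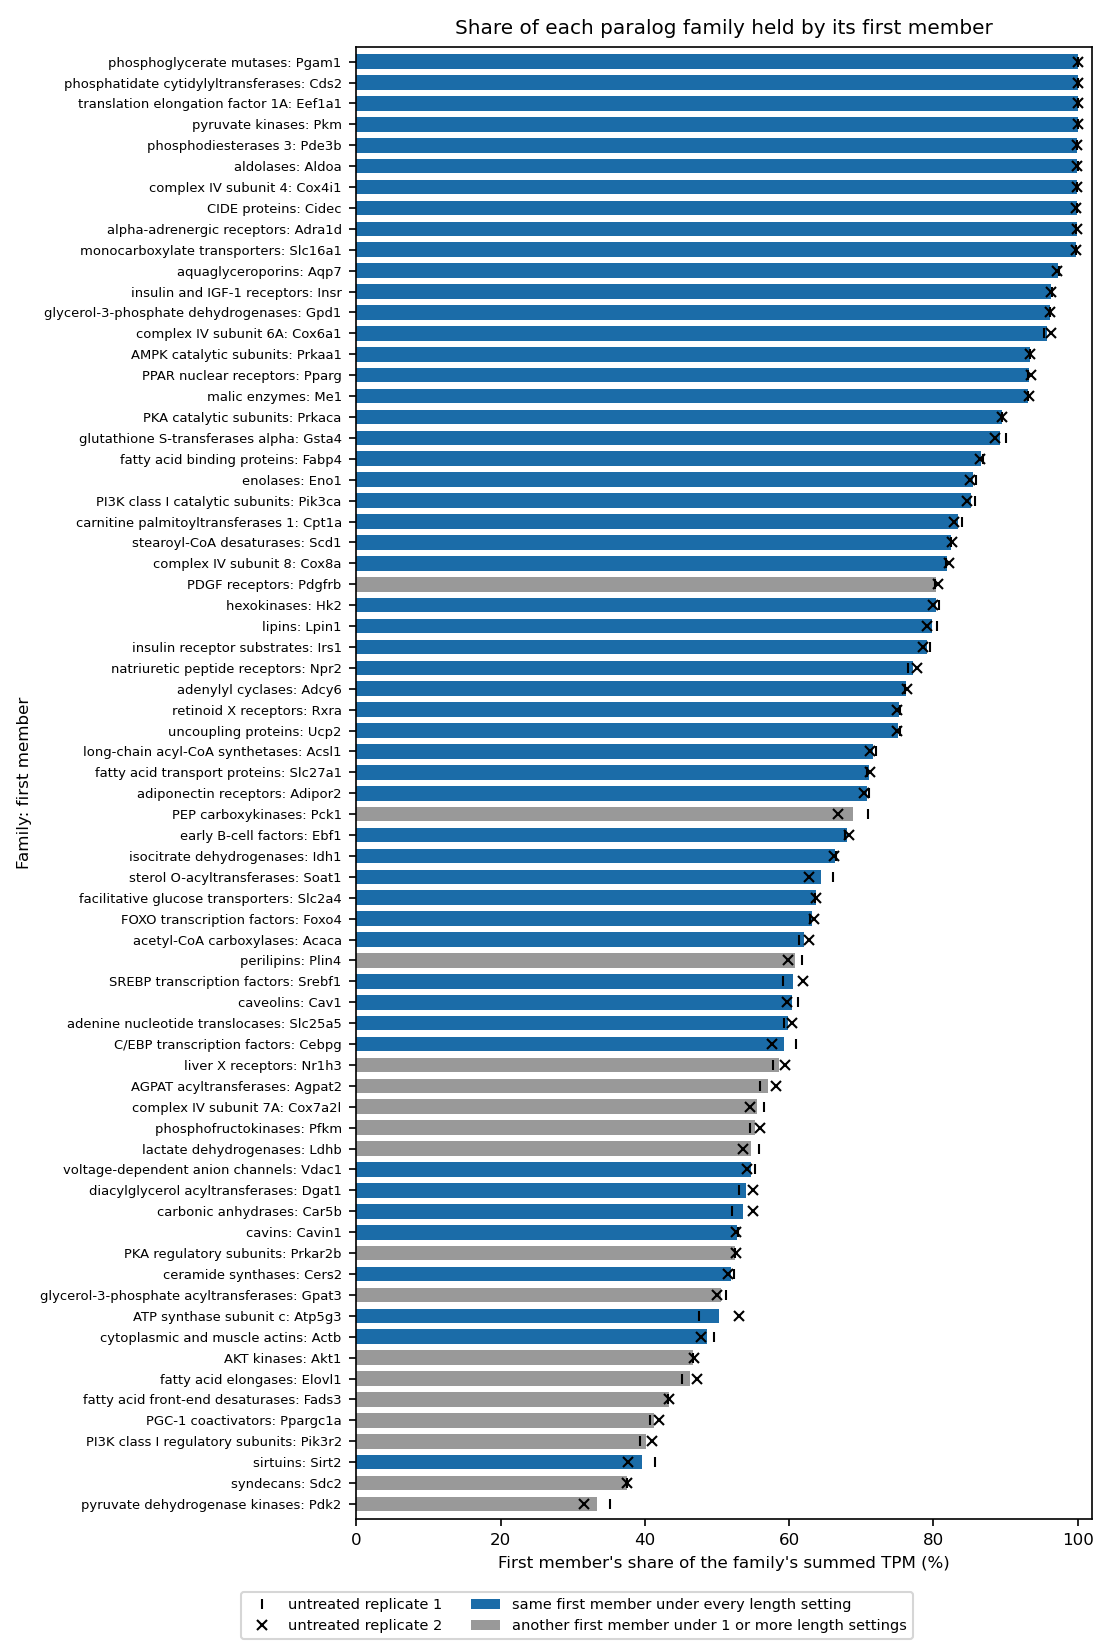
Share of the family's summed TPM (x axis, %) held by the first member of each of 70 families, as bars for the mean and marks for each untreated library. Blue bars are the 53 families with the same first member under every length setting, and grey bars the other 17; 17 bars reach 90% or more.

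In the nuclear receptors and their partners, Pparg held 93.1 and 93.5% of the PPAR family in replicates 1 and 2, with Ppard second (23.1 ± 0.976 TPM) and Ppara at 1.02 ± 0.167 TPM. Pparg exceeded Ppard 14.6-fold (5.74 to 10.1 by other lengths). Rxra held 75.4 and 74.99% of the RXR family and exceeded Rxrb 3.35-fold (2.06 to 4.60 by other lengths). In the C/EBP family the first member was Cebpg, which lacks a classical activation domain, at 139 and 140.1 TPM, above Cebpa at 77.5 and 88.7 TPM (log2 ratio 0.75 ± 0.129, 2.00 to 6.80-fold by other lengths). Srebf1 exceeded Srebf2, the regulator of cholesterol genes, 1.53-fold (1.2 to 3.17 by other lengths), at 93.5 ± 7.68 against 60.8 ± 0.240 TPM. Ebf1 exceeded Ebf3 3.99-fold. Foxo4 held 62.9 and 63.4% of the FOXO family, ahead of Foxo3 (18.3 ± 0.627 TPM) and of Foxo1 (14.2 ± 0.0956 TPM), the member most studied in insulin action. Foxo4 exceeded Foxo3 3.19-fold (1.47 to 3.18 by other lengths).

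In lipid handling, Fabp4 held 86.9 and 86.4% of its family and Fabp5 (310.3 ± 18.4 TPM) nearly all of the rest, while Fabp1, Fabp2, Fabp6 and Fabp7 were listed at 0. Cidec held 99.9 and 99.8% of the CIDE family. Acsl1 exceeded Acsl4 5.86-fold (10.6 to 83.7 by other lengths) and held 72.03 and 71.2% of the long-chain synthetases. Slc27a1 exceeded Slc27a4 2.83-fold (3.60 to 4.73 by other lengths). Scd1 exceeded Scd2 4.73-fold (4.24 to 21.5 by other lengths), at 5513 and 5488 against 1170.4 and 1154 TPM, and Scd3 and Scd4 stood at 7.33 and 0.265 TPM. Acaca exceeded Acacb, the mitochondrial form, 1.64-fold (2.68 to 18.3 by other lengths). Gpd1 held 96.2 and 96.2% of the glycerol-3-phosphate dehydrogenases, and Lpin1 80.5 and 79.1% of the lipins. Gpd1 exceeded Gpd2 41.2-fold (18.6 to 37.5 by other lengths) and Lpin1 exceeded Lpin2 4.87-fold (1.19 to 3.88 by other lengths). Dgat1 and Dgat2 differed only 1.17-fold, with a log2 ratio of 0.23 ± 0.083. For entry into mitochondria, Cpt1a exceeded Cpt1c 5.29-fold (5.45 to 20.5 by other lengths), and the muscle form Cpt1b had 15 and 8 counts, but 94.8% of it matched other gene models.

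In glucose metabolism, Slc2a4 exceeded Slc2a1, the basal transporter GLUT1, 2.64-fold, at 144 and 143 against 55.2 and 53.4 TPM. Slc2a2, Slc2a5 and Slc2a12 were listed at 0. Hk2 exceeded Hk1 4.85-fold (1.33 to 3.39 by other lengths). Aldoa (1268 ± 14.05 TPM), Pgam1 (419 ± 20.2 TPM) and Pkm (364 ± 6.41 TPM) each held over 99% of their family. Of Pgam1 43.1% matched other gene models, and Pgam2 was listed at 0. Eno1 led the enolases at 139.6 ± 0.0583 TPM, but 85.6% of its longest transcript matched another gene model, Eno1b for the most part. Slc16a1, the lactate transporter MCT1, stood at 48.2 ± 2.43 TPM, while Slc16a3 (MCT4) had 7 and 8 counts. Me1 of the cytosol exceeded Me2 13.8-fold (7.32 to 7.48 by other lengths), and Idh1 of the cytosol exceeded Idh2 of the mitochondria 1.97-fold.

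In insulin signalling, Insr exceeded Igf1r 26.5-fold, at 92.1 and 89.04 against 3.43 and 3.41 TPM. Irs1 exceeded Irs2 3.90-fold. Among the catalytic subunits of class I PI3K, Pik3ca held 85.7 and 84.7% and exceeded Pik3cb (p110β) 6.18-fold. The leukocyte isoforms Pik3cd and Pik3cg had 23 and 43 counts and 5 and 4 counts. Prkaa1 held 93.5 and 93.4% of the catalytic subunits of AMPK and exceeded Prkaa2 14.2-fold (8.30 to 14.3 by other lengths). Pde3b, through which insulin lowers cyclic AMP, had 43.4 ± 2.29 TPM, while Pde3a had 1 and 1 counts.

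Among the alpha-adrenergic receptors, Adra1d was the single one detected, at 19.7 ± 2.34 TPM. Of the enzymes of cyclic AMP signalling, Adcy6 exceeded Adcy9 4.31-fold (4.63 to 6.84 by other lengths) and Prkaca exceeded Prkacb 8.52-fold (2.42 to 4.91 by other lengths). Adipor2 exceeded Adipor1 2.42-fold. Npr2 exceeded Npr3, the clearance receptor, 3.65-fold (1.82 to 5.16 by other lengths).

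In mitochondria, Ucp2 led the uncoupling proteins at 39.9 and 41.7 TPM, 3.02-fold (4.13 to 18.8 by other lengths) above Ucp3, with Ucp1 listed at 0. The common form came before the muscle or lung form in the subunits of cytochrome c oxidase. Cox4i1 stood at 1066 ± 42.2 TPM against 3 and 7 counts for Cox4i2, Cox6a1 exceeded Cox6a2 22.9-fold, and Cox8a exceeded Cox8b 4.54-fold (5.11 to 7.81 by other lengths). The carrier Slc25a5 exceeded Slc25a4 1.49-fold. Vdac1 exceeded Vdac2 2.17-fold (1.18 to 1.2 by other lengths). Car5b, the mitochondrial carbonic anhydrase that serves lipogenesis, exceeded Car13 2.04-fold (3.76 to 5.62 by other lengths), while Car3, known as abundant in fat tissue, stood at 50.8 and 40.4 TPM. The creatine kinases were the family with no detected member.

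Elsewhere, Cav1 exceeded Cav2 1.53-fold (1.57 to 3.26 by other lengths) and Cavin1 exceeded Cavin2 1.61-fold (1.65 to 2.78 by other lengths). Cers2 exceeded Cers5 1.89-fold (1.96 to 3.34 by other lengths), Sirt2 exceeded Sirt7 2.71-fold (2.65 to 4.09 by other lengths) and Aqp7 exceeded Aqp11 40.9-fold (7.80 to 28.2 by other lengths). Eef1a1 stood at 7794 TPM and Eef1a2, the form of neurons and muscle, had 0 and 1 counts. Cds2 stood at 52.9 ± 1.82 TPM, while Cds1 was listed at 0. Actb exceeded Actg1 1.37-fold, but 57.8% of Actg1 matched another gene model.

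Some orders were not settled. In 4 families the ratio did not exceed the spread. Elovl1 and Elovl5 stood at 83.3 ± 3.21 and 75.3 ± 2.46 TPM. Pdk2 and Pdk4 stood at 57.1 ± 4.39 and 51.8 ± 1.51 TPM. The PI3K regulatory subunits Pik3r2 (p85β) and Pik3r1 (p85α) stood at 92.8 ± 2.89 and 81.04 ± 3.32 TPM, and Atp5g3 and Atp5g2 at 324 ± 50.99 and 272 ± 1.48 TPM. Other families had a ratio past the spread but changed order with the length used. Akt1 stood at 161 ± 1.01 and Akt2 at 144 ± 0.0502 TPM, yet with the median transcript length Akt2 came first, at 379.8 against 292 TPM. Plin4 came before Plin1 by merged exons and after it by the median transcript length, at 323 against 413 TPM. Ldhb came before Ldha by merged exons, at 336 and 323 against 266 and 278 TPM, and after it under all 3 alternatives.

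The 2 libraries lay close to each other. Across detected genes, which are not independent replicates, the Pearson r of log2 CPM was 0.996 and the Spearman rho was 0.998. The median absolute log2 ratio was 0.0833, and 0.0592 over the 8961 genes at 10 CPM or more, of which 98.2% lay within 1.2-fold. The mean chi-square per gene was 6.33, where counting noise alone gives 1, and the libraries were counted as 2 samples. The biological coefficient of variation from edgeR was 0.0429. Of the 10 genes with the widest gaps, 9 differed by 0.45 to 0.56 on the log2 scale. Among them were Spp1, osteopontin (14.7 and 21.8 CPM), Jund, a member of the AP-1 factors (9.33 and 13.6 CPM), and Romo1, a small mitochondrial protein (15.4 and 22.1 CPM). All 10 were higher in replicate 2. The log2 ratio of replicate 2 to replicate 1 had a median of 0.06 over the 1011 genes with a longest transcript of up to 1000 bases and of -0.05 over the 718 genes above 8000 bases, so short transcripts lay slightly higher in replicate 2.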

How the data were processed

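Poly(A)-selected RNA (TruSeq Stranded mRNA) of 3T3-L1 adipocytes was sequenced, and the 2 untreated libraries of 8 were used, as named in the labels. Per the methods and the processing notes, TopHat 2.0.11 placed the reads on GRCm38 and HTSeq counted them for each Ensembl gene. The authors deposited these raw counts, which are not normalized. The version of HTSeq, the strand setting and the annotation release are not given in the sources used here, so counts of overlapping and antisense genes are uncertain. The table also holds the authors' DESeq2 comparison (means, log2 fold changes, errors and p-values), which was not used, nor were the 6 columns of the treated libraries.

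Here, CPM was computed on library totals of 42247091 and 53401796 counts, and TPM with the merged exon length of GENCODE M21 (GRCm38). Of 43629 gene IDs, 42548 matched, and the 1081 others held 0.0827% of counts. Detection required 10 counts in both libraries. Genes named are the 20 highest by CPM and by TPM, listed genes, the first and second paralog of a family, and the 10 genes of at least 10 CPM with the widest gap between libraries. Members, lists and families were chosen with earlier results of these data known, and the p53 list after its values were seen. Other genes (paralogs beyond the second, low mitochondrially encoded genes, the Mdm2 neighbours, collagens, Mrps23, Mrpl53 and Car3) were also named after their values were seen. A paralog ratio was called past the spread when its mean log2 value exceeded 2 times its SD and both libraries had the same first member. A few genes, and the families they belong to, are not reported here. No differential test was run. Near-identical transcripts were found with BLAST+ 2.17.0 (at least 99% identity over at least 100 bases). Promoters come from RefSeq (GRCm38.p6). Python 3.11.15 with pandas 2.3.3, R 4.3.3, edgeR 4.0.16 and DESeq2 1.42.0 (scaling factors only) were used, and the code was tested on simulated data. Floors of 3 counts cover counting error only. The alternatives tried were other lengths, other scalings, other count thresholds and each library alone.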

Additional observations from a re-analysis of the deposited data

How the results depend on the processing

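With each library left out in turn, the number of detected genes was 13864 to 14176, the share of counts in the 20 most abundant genes 16.6 to 17.0%, and the share of mitochondrially encoded genes 10.5 to 10.9%, and all 70 families kept their first member (70 in each). Without mitochondrially encoded genes, the 20 most abundant genes held 9.26% of counts and the median level of detected genes was 26.8 CPM in place of 23.9 CPM, while TMM and DESeq2 scaling left that median at 23.9 CPM. The detected genes numbered 17040 with at least 1 count in both libraries and 11810 with at least 1 CPM, and the median absolute log2 ratio was 0.0717 at 1 CPM or more and 0.0831 with TMM. The summed counts of both libraries, an alternative added after the data were seen, gave 16.8% for the 20 most abundant genes.

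A paralog ratio past the spread has, by definition, the same sign in both libraries, so leaving out a library could not reverse it. The ratios that changed sign with another length follow. With the longest transcript the log2 ratio was -0.064 for Ppargc1a to Pprc1, -0.16 for Fads3 to Fads1 and -0.32 for Ldhb to Ldha. With the median transcript length it was -1.22 for Nr1h3 to Nr1h2, -2.11 for Ppargc1a to Pprc1, -0.36 for Plin4 to Plin1, -0.45 for Fads3 to Fads1, -1.90 for Gpat3 to Gpat4, -0.075 for Pck1 to Pck2, -1.92 for Pfkm to Pfkl, -0.96 for Ldhb to Ldha, -0.38 for Akt1 to Akt2, -1.53 for Prkar2b to Prkar1a, -0.031 for Cox7a2l to Cox7a2, -0.63 for Pdgfrb to Pdgfra and -1.83 for Sdc2 to Sdc1. Without length it was -0.068 for Fads3 to Fads1, -0.20 for Gpat3 to Gpat4, -0.039 for Pck1 to Pck2, -0.80 for Ldhb to Ldha and -0.64 for Akt1 to Akt2. The ranks of the markers under these lengths and CPM ran from 13 to 24 for Adipoq, 20 to 57 for Fabp4, 204 to 342 for Plin1 and 280 to 415 for Pparg.

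No paired analysis was possible because only the untreated group was described, and its values come from no test. With 2 libraries the error of each level is itself poorly known, and genes at the threshold rest on about 10 counts.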

Other observations

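Imprinted genes, which are expressed from 1 parental allele, were read as a further group. Of 20 listed, 14 were detected (55.7% of all protein-coding genes were), 2 lay in the top decile, which holds 10.0% of detected genes (Gnas at 163 ± 0.122 TPM and Igf2r at 111 ± 0.559 TPM), and Meg3 and Dlk1, neighbours of the same imprinted cluster, were both listed at 0. Igf2 stood at 54.5 ± 0.381 TPM, but 76.2% of its longest transcript matched another gene model, and H19, its neighbour, had 20 and 46 counts. Peg10 (78.9 ± 0.379 TPM) and Sgce (30.6 ± 0.651 TPM), which lie next to each other, were both detected, as was Airn (11.97 ± 0.510 TPM), the antisense transcript of the Igf2r locus. Mest, a gene linked to fat mass, stood at 4.30 ± 0.409 TPM.

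Of 6 genes of the sex chromosomes, Xist had 29 and 32 counts and was the single gene detected. For comparison, 13625 of all 43629 genes and 55.7% of the protein-coding genes were detected. The Y-linked genes Ddx3y, Eif2s3y and Kdm5d were listed at 0 and Uty had 3 and 8 counts.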
